A study of Homo sapiens with 17 samples.

Results

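Integrins are the cell surface receptors through which cells hold on to the extracellular matrix, and laminins are the large matrix proteins of basement membranes to which some of them bind. The genes described here are the probe sets whose single gene symbol is that of an integrin alpha chain, an integrin beta chain or a laminin chain, 34 of the 17709 probe sets with a single gene symbol and of 24351 on the array. They comprise 17 alpha chains, 8 beta chains, 8 laminin chains and ITGBL1, an integrin beta-like gene that is not a receptor chain and is taken in by its name. Each gene had 1 probe set. Integrin or laminin chains other than these 34 were not analysed here.

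The series measured RNA on 17 arrays of cultured human breast cells, seeded for 24 h and then, other than untreated cells, exposed for 48 h. For the untreated cells no time after seeding is recorded here. MDA-MB-231, a mesenchymal triple-negative breast cancer line, was given Maraviroc, an approved drug, at its IC20 or IC50, DZH_2, a compound known here by its code name alone, at its IC20 or IC50, ethanol (the solvent of Maraviroc) or DMSO (the solvent of DZH_2), with 2 arrays each, and 1 array held untreated cells. Cells titled MCF10, named for a non-tumorigenic mammary epithelial line, were given DZH_2 at IC20 or IC50 or DMSO, or were left untreated, with 1 array each. IC20 and IC50 stand for 20 and 50 percent inhibition, and the molar doses behind them are not known here. The labels do not tell whether replicate arrays came from different cultures, so a p-value here rests on a spread that may be technical only. RNA came from whole cultures, in which fewer cells with a transcript and less of it per cell cannot be told apart. The cell line field of the 4 MCF10 arrays reads MDA-MB-231, and the titles were followed.

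An integrin is a heterodimer of 1 alpha and 1 beta chain, and the pairing sets what it binds. ITGB1 pairs with many alpha chains, whereas ITGB4 pairs with ITGA6 alone, and that dimer anchors epithelial cells to laminin at hemidesmosomes. ITGA3, ITGA6 and ITGA7 form laminin receptors, ITGA2 and ITGA10 collagen receptors, ITGA5 the classical fibronectin receptor with ITGB1, and ITGAV with ITGB3, ITGB5, ITGB6 or ITGB8 receptors for the RGD motif. ITGAL, ITGAM, ITGAX and ITGAD pair with ITGB2 on leukocytes. A laminin is a trimer of 1 alpha, 1 beta and 1 gamma chain, and LAMB1 and LAMC1 occur in the most widespread trimers.

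Values are log2 signals as the authors deposited them. Background on an array was taken as the 75th percentile of its 612 negative controls, 5.64 to 6.60, and a gene no brighter than that is called near background. By that measure 13 of the 34 genes stood above background on all 13 MDA-MB-231 arrays and 11 on none. In the arrays titled MCF10, 17 stood above background on all 4 and 8 on none. The 12 genes above background on every array of both lines were ITGA3, ITGA5, ITGA6, ITGAE, ITGAV, ITGAX, ITGB1, ITGB2, ITGB5, LAMA4, LAMB2 and LAMC1. ITGA4, ITGA9, ITGA11, ITGAD, ITGAL, ITGB6 and ITGB7 were near background on all 17 arrays. 

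Replicates correlated across genes at 0.984 to 0.991 in 5 replicated groups and at 0.960 in Maraviroc IC50. The SD between replicates over the 34 genes was 0.57 in Maraviroc IC50, against 0.31 to 0.44 elsewhere, and the negative control percentile was 6.42 and 6.46 on the Maraviroc IC50 arrays, against 5.87 and 5.64 on the ethanol arrays. Of the epithelial junction markers CDH1, EPCAM, ESRP1, CLDN1 and OVOL1, none stood above background in the arrays titled MCF10. Of 5 basal markers S100A2 and SFN did on all 4 arrays, TRIM29 on 3, KRT5 on 2 and KRT14 on none. The arrays near background for TRIM29 and KRT5 were DZH_2 arrays. KRT5 stood at 8.92 in DMSO and 9.67 in untreated cells, against 5.81 in DZH_2 IC20 and 5.69 in DZH_2 IC50. In the same order TRIM29 stood at 8.18 and 8.75, against 6.18 and 6.76, and S100A2 at 14.78 and 14.91, against 11.25 and 10.74. SFN was higher with DZH_2 (12.13 and 13.11, against 11.52 and 11.16). Its median was 11.82 in MCF10, against 11.97 in MDA-MB-231. Of 6 fibroblast markers DCN, FBLN1 and MMP2 stood above background on all 4 MCF10 arrays, PDGFRB on 2 and PDGFRA and LUM on none. PDGFRB stood above background on all 13 MDA-MB-231 arrays. These arrays are called MCF10 after their titles only.

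**Figure D1:**
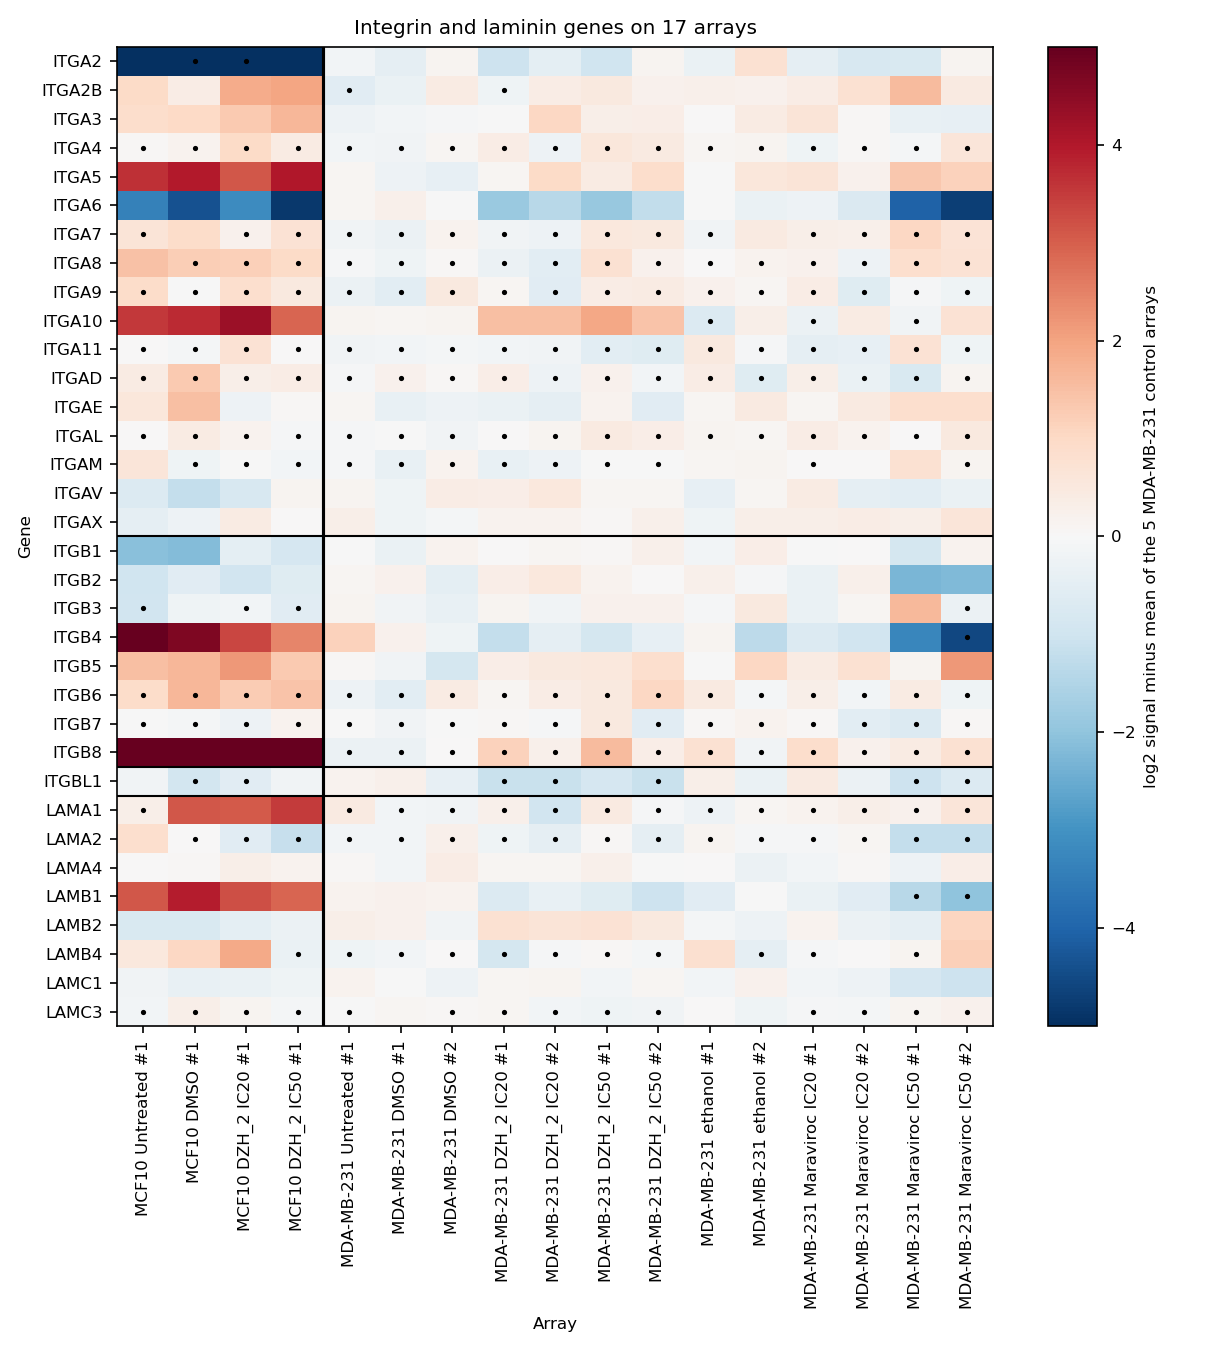
Log2 signal of the 34 integrin and laminin genes (rows) on each of the 17 arrays (columns), as the difference from the mean of the 5 MDA-MB-231 control arrays, with colours clipped at 5 log2 units and a dot where the signal was near background. ITGA6 is blue on both Maraviroc IC50 arrays, on the 4 DZH_2 arrays of MDA-MB-231 and on the 4 MCF10 arrays.

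Maraviroc at IC50 lowered the laminin receptor chains ITGA6 and ITGB4, the leukocyte chain ITGB2 and the laminin chains LAMB1 and LAMC1 in MDA-MB-231, and raised ITGA5. The calls of LAMB1, LAMC1 and ITGA5 did not hold under every alternative way of processing, and LAMB1 was near background on the treated arrays. ITGA6 fell furthest, by 4.20 ± 0.33 on the log2 scale, 18.3-fold lower than in ethanol. Of 34 genes 6 fell and 1 rose, and 27 did not pass. The called share was 20.6%, where 27.0% of all 17687 genes were called by limma. Median centring gave 3 rises and 6 falls of the 34 genes and moved the median of all genes to 0.28. Over all genes it gave 3018 rises and 2308 falls, against 2122 and 2656 as deposited. The median log2 difference was 0.14 over the 34 genes and 0.11 over all genes.

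Among the receptors, ITGA6 stood at 8.73 and 8.08 in Maraviroc IC50, against 12.77 and 12.43 in ethanol. Both treated arrays lay far below both ethanol arrays and still above background. The difference of -4.20 ± 0.33 had an adjusted p of 4.1e-06 by limma. Its partner ITGB4 stood at 7.20 and 5.93 in Maraviroc IC50, against 10.61 and 9.16 in ethanol. The groups did not overlap, and the lower treated array was near background. The difference was -3.31 ± 0.49, with an adjusted p of 3.3e-04 by limma. The other partner of ITGA6, ITGB1, did not pass: it stood at 14.51 and 15.57 in Maraviroc IC50, against 15.26 and 15.71 in ethanol (-0.44, 95% interval -1.18 to 0.29).

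ITGB2, the beta chain of the leukocyte integrins, stood at 6.84 and 6.94 in Maraviroc IC50, against 9.41 and 9.08 in ethanol. The treated arrays were close to each other and more than 2 log2 units below both ethanol arrays. The difference was -2.35 ± 0.30, with an adjusted p of 1.1e-04 by limma. The alpha chains that pair with it gave no call: ITGAX stood at 7.18 and 7.46, against 6.64 and 7.15 in ethanol, ITGAM was near background on 1 treated array, and ITGAL and ITGAD were near background throughout. Of 5 leukocyte markers, CD53 was near background on all 17 arrays, and PTPRC, CD3E, CSF1R and CD14 stood above it on 4, 7, 11 and 12 of the 13 MDA-MB-231 arrays. Their summed log2 signal was 29.6 to 31.7 in Maraviroc IC50, against 30.1 to 30.4 in ethanol. The sum hides opposite differences. PTPRC (6.71 and 7.26, against 5.83 and 5.57 in ethanol) and CD3E were higher on both treated arrays. CD14 was lower (6.44 and 5.69, against 7.62 and 7.85), and CSF1R and CD53 overlapped.

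ITGA5, the fibronectin receptor chain, stood at 12.56 and 12.36 in Maraviroc IC50, against 11.20 and 11.78 in ethanol. Both treated arrays were above both ethanol arrays, a rise of 0.97 ± 0.33 with an adjusted p of 0.048 by limma. This call was lost without any 1 of the 4 arrays, with an adjusted p of 0.13 without Maraviroc IC50 replicate 1, 0.064 without its replicate 2, 0.29 without ethanol replicate 1 and 0.051 without ethanol replicate 2. The collagen receptor chain ITGA2, the laminin receptor chain ITGA3 and the RGD-binding chains ITGAV, ITGB3 and ITGB5 did not pass. Their log2 differences were -0.52, -0.63, -0.27, 0.46 and 0.65.

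Among the laminins, LAMC1, the gamma chain of most laminins, stood at 12.45 and 12.27 in Maraviroc IC50, against 13.14 and 13.52 in ethanol. Both treated arrays were below both ethanol arrays, by -0.97 ± 0.25 (adjusted p = 0.012 by limma, and 0.10 without ethanol replicate 2). LAMB1, a beta chain, stood at 5.71 and 5.08, near background, in Maraviroc IC50, against 6.53 and 7.08 in ethanol, just above it. It passed (adjusted p = 0.0039 by limma), but with the treated level at background the measured fall is at least 1.29-fold. LAMA2, the alpha chain of muscle laminin, was also called, with 4.47 and 4.47 against 5.78 and 5.58 in ethanol. All 4 of these arrays were near background, so no fold is given. LAMA4 and LAMB2 did not pass, with log2 differences of 0.19 and 0.47.

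The promoters of ITGA6, LAMB1 and LAMC1, all lower at Maraviroc IC50, are given here to set the sequences of these genes side by side, as RefSeq has them on build GRCh38.p14, from 250 bases before to 50 after the gene's start. ITGA6 lies on the plus strand (chr2:172427086-172427385), LAMB1 on the minus strand (chr7:108003112-108003411) and LAMC1 on the plus strand (chr1:183023170-183023469). Each is written 5′ to 3′ on the gene's strand, and capitals mark the GC box, GGGCGG on either strand, the letters that SP1 binds.
ITGA6: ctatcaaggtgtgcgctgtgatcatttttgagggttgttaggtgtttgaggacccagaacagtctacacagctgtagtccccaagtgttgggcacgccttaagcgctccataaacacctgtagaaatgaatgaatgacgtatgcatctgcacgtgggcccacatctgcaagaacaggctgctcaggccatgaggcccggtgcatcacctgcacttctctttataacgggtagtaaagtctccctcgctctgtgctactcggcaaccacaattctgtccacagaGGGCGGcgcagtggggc
LAMB1: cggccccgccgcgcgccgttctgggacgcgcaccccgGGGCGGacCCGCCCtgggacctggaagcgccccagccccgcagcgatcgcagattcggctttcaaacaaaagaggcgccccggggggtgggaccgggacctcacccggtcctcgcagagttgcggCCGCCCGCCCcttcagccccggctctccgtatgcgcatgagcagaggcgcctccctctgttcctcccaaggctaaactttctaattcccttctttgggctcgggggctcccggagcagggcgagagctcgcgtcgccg
LAMC1: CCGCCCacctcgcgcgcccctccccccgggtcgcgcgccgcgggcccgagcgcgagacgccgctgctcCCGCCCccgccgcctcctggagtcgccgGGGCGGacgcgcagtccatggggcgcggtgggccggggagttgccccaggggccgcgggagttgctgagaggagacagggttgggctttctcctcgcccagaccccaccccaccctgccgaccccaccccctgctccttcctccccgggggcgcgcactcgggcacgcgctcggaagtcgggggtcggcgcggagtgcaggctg
The window of LAMB1 was 71.0% G and C with 4 GC boxes, of which 1 pair overlaps, and that of LAMC1 was 79.0% with 3. The window of ITGA6 was 53.0% G and C with 1 GC box, and it held the E-box CANNTG at 7 positions, where those of LAMB1 and LAMC1 held it at 0. Promoters of 23 of the 34 genes were matched by gene identifier. A GC box was in 12 of these 23 (52.2%) and in 44.6% of all 27305 promoters of this length, and an E-box was in 11 (47.8%) and in 68.9%. These are letter matches, not binding sites.

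**Figure D2:**
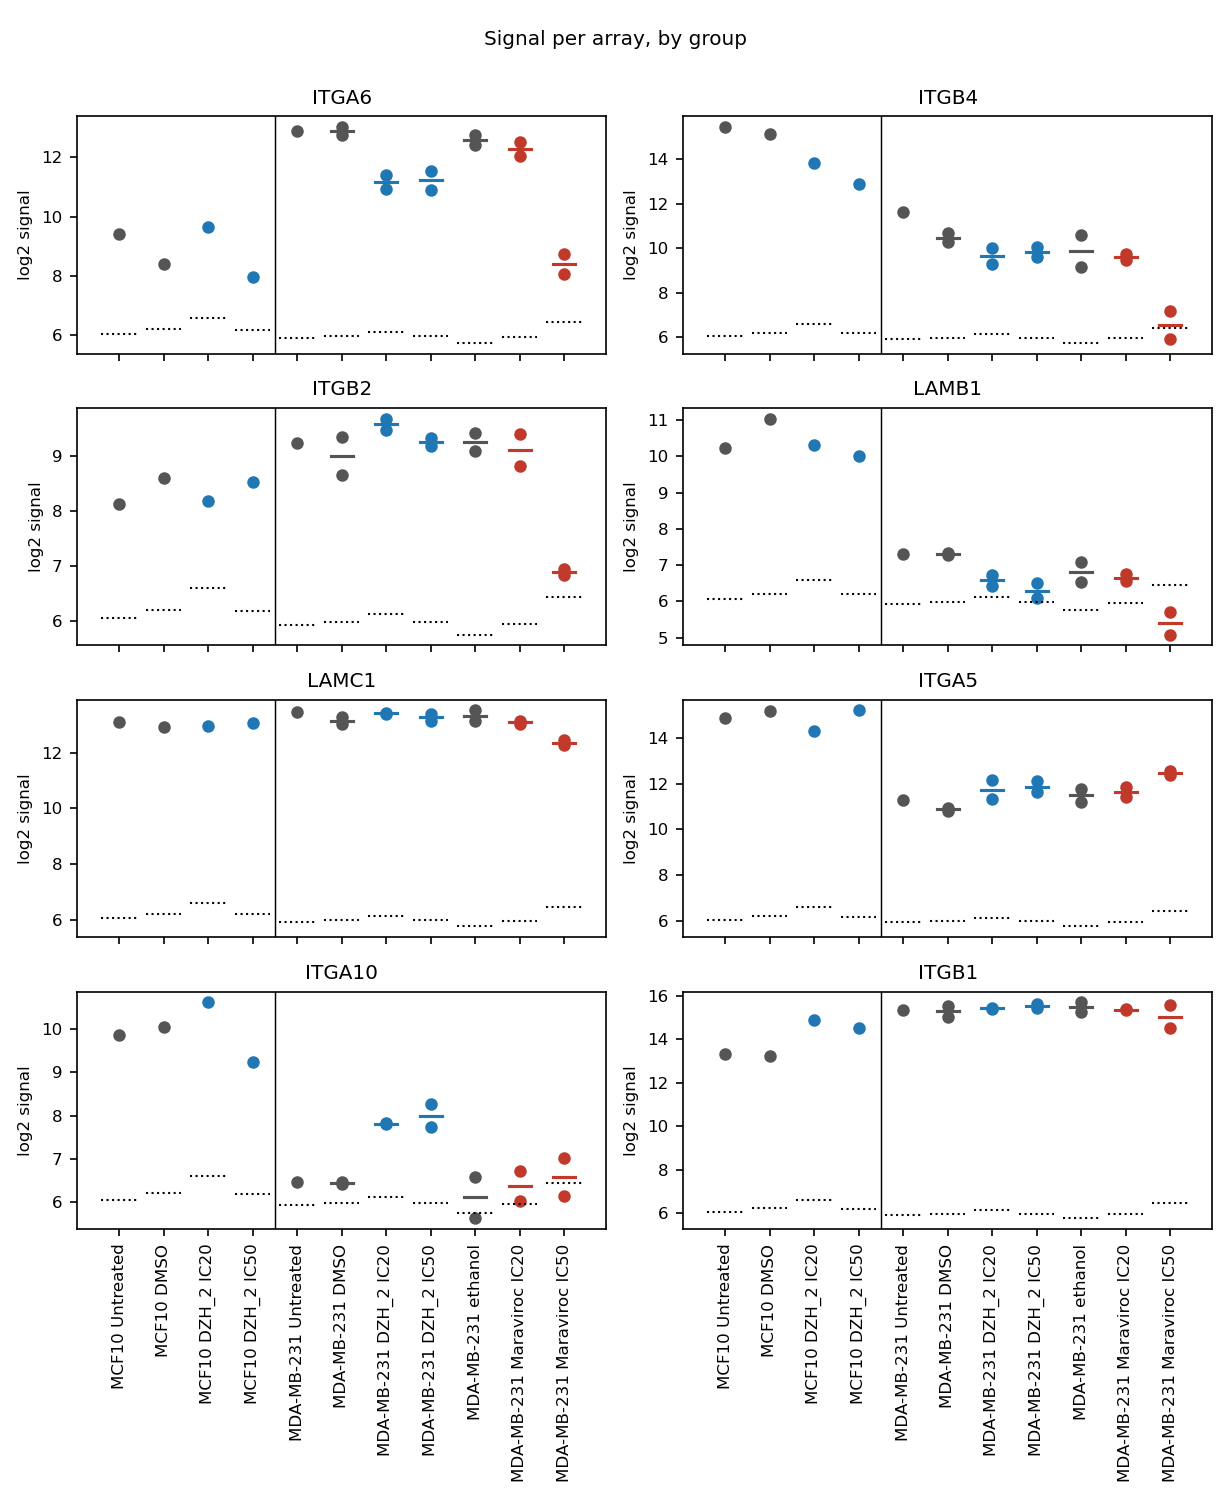
Log2 signal (vertical axes) of 8 genes in each group (horizontal axis), with a point per array, a bar at the mean of 2 arrays and a dotted line at the mean background level of the group. ITGA6, ITGB4 and ITGB2 drop on the Maraviroc IC50 arrays, ITGA6 and, by less, ITGB4 also lie below DMSO on all 4 DZH_2 arrays of MDA-MB-231 (only ITGA6 passed the test), and ITGA10 is higher on the DZH_2 arrays of that line.

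At the lower dose of Maraviroc no gene of the 34 passed against ethanol, and 0% of all genes did by limma (0 of the 34 and 309 of 17687 at an unadjusted p under 0.05). ITGA6 stood at 12.53 and 12.05 in Maraviroc IC20, against 12.77 and 12.43 in ethanol, and ITGB4 at 9.76 and 9.49, against 10.61 and 9.16. Log2 differences over the 34 genes ran from -0.82 (ITGA2) to 0.33 (ITGA2B). The difference between the doses was itself tested: of the 34 genes 6 were lower at IC50 than at IC20 and none was higher, with 26.7% of all genes called (11.9% higher and 14.8% lower). ITGA6, ITGB4 and ITGB2 were -3.88 ± 0.33, -3.06 ± 0.49 and -2.22 ± 0.30 at IC50 relative to IC20 (adjusted p between 6.8e-06 and 5.9e-04 by limma). LAMC1 was at -0.73 ± 0.25. LAMB1, near background at IC50, was at least 1.16-fold lower than at IC20, and LAMA2 was near background at both doses, so no fold is given. Median centring gave 2 higher and 5 lower genes of the 34, and 2907 higher and 2234 lower over all genes, against 2109 and 2610 as deposited. The LAMC1 call (adjusted p = 0.047) was lost without any 1 of the 4 arrays (0.052 to 0.21), under median centring, quantile normalization and array weights, and with the replicate block, and that of LAMB1 without Maraviroc IC20 replicate 1 (0.069).

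Genes that act with integrins also changed at Maraviroc IC50. The lists here and in the next paragraph were chosen with earlier results of these data known. Their called shares are therefore no independent support, and all genes, set beside them, include genes near background. Of 22 measured adaptors and kinases of integrin adhesions 11 fell and 3 rose (median -0.93 against 0.11 over all genes, 63.6% called against 27.0%). ACTN4 and VCL, which tie adhesions to actin, fell by 4.03 ± 0.33 and 2.43 ± 0.33, and the integrin activator FERMT1 fell to near background on both treated arrays, whereas LIMS1, a partner of the kinase ILK, rose by 1.90 ± 0.29. Of 17 regulators and trafficking genes 6 fell and 1 rose (median -0.41, 41.2% called against 27.0%), among them CD47, an integrin-associated membrane protein (-2.42 ± 0.28), the endocytic adaptor NUMB (-2.30 ± 0.41), the recycling GTPase RAB11A (-1.49 ± 0.27) and NISCH, which binds ITGA5 (1.58 ± 0.29). The adjusted p values of these 8 genes lay between 6e-06 and 0.0014 by limma.

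Of 12 measured basement membrane partners of laminins 4 fell and 2 rose (median -0.42, 6 of 12 called, against 27.0% of all genes). They included the syndecan SDC1 (-1.75 ± 0.35), the collagen IV chain COL4A2 (-1.09 ± 0.28) and the laminin receptor BCAM (-1.63 ± 0.45). COL4A1, the other chain of that collagen, was called with the treated arrays near background. Of 18 other integrin ligands 5 fell and 2 rose (median -0.25, 38.9% called against 27.0%), with CCN2 at -3.21 ± 0.35, LTBP1 at -2.36 ± 0.48, THBS1 at -2.09 ± 0.48 and EDIL3 at -2.03 ± 0.44. Adjusted p values of the genes of these 2 lists named here lay between 3.7e-05 and 0.017 by limma. Without Maraviroc IC50 replicate 2 the ligand median turned to 0.12, with 4 falls and 2 rises, and the adaptors gave 7 falls and 4 rises. Calls were fewest without 1 of the ethanol arrays: 6 falls and 2 rises in the adaptors and 1 fall in the basement membrane list without ethanol replicate 2. Without ethanol replicate 1 the adaptors gave 7 falls and 2 rises, the basement membrane list 3 falls and the ligands 4 falls. The basement membrane list gave 2 falls without Maraviroc IC50 replicate 1, and the regulators 4 falls and 1 rise without either ethanol array. The summed log2 signal of 6 mesenchymal markers was 47.4 to 57.2 in Maraviroc IC50, against 61.4 to 63.0 in ethanol. VIM, ZEB1, AKAP12 and SNAI2 were lower on both treated arrays. FN1 (10.16 and 6.22, against 9.87 and 9.75 in ethanol) and SPARC (8.28 and 5.71, against 6.1 and 5.35) overlapped. The part of these markers in these results was not tested.

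DZH_2 lowered ITGA6 in MDA-MB-231 at both doses. It was the 1 gene of 34 that passed at IC20 and at IC50, where 0.871% of all genes (0.435% higher and 0.435% lower) and 1.57% (0.582% higher and 0.984% lower) passed by limma. ITGA6 stood at 10.93 and 11.40 in DZH_2 IC20, against 13.03 and 12.77 in DMSO, a fall of 1.74 ± 0.33. It stood at 10.90 and 11.55 in DZH_2 IC50, against the same DMSO arrays, a fall of 1.68 ± 0.33. All 4 treated arrays lay more than 1 log2 unit below both DMSO arrays and below the untreated array at 12.88. The adjusted p was 0.034 at IC20 and 0.032 at IC50 by limma. The comparisons share the DMSO arrays, and each call was lost when any 1 of its 4 arrays was left out: the adjusted p became 0.12 to 0.34 at IC20 and 0.068 to 0.30 at IC50, with the difference between -1.51 and -1.97 at IC20 and between -1.35 and -2.01 at IC50.

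With the doses averaged, 4 DZH_2 arrays against 2 of DMSO, ITGA6 fell by 1.71 ± 0.29 (adjusted p = 0.0099) and ITGA10 rose by 1.47 ± 0.34 (adjusted p = 0.037), and the other 32 genes did not pass, where 3.01% of all genes passed by limma, 1.16% higher and 1.85% lower. ITGA10, a collagen receptor chain known from cartilage, stood at 7.83 and 7.80 in DZH_2 IC20 and at 8.26 and 7.73 in DZH_2 IC50, against 6.41 and 6.47 in DMSO. The 4 treated arrays were all above the DMSO arrays, and above the untreated array at 6.47. The ITGA6 call was lost without DMSO replicate 1 (adjusted p = 0.19) or 2 (0.090). That of ITGA10 was lost without any 1 of the 6 arrays (0.058 to 0.32).

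The other genes of the family gave smaller or more variable differences with DZH_2. ITGB4, the partner of ITGA6, stood at 9.27 and 10.03 in DZH_2 IC20 and at 9.59 and 10.05 in DZH_2 IC50, against 10.67 and 10.26 in DMSO. All 4 treated arrays were below both DMSO arrays, but the mean difference of -0.73 ± 0.42 did not pass (adjusted p = 0.46 by limma). LAMB1 and ITGBL1 were lower by means of -0.87 ± 0.26 and -0.97 ± 0.29, with ITGBL1 above background on 1 of the 4 treated arrays. ITGA5 and ITGB5 had means of 0.93 ± 0.29 and 1.08 (95% interval 0.07 to 2.08). None of these genes passed the threshold. LAMC1, at 13.39 and 13.44 in IC20 and 13.14 and 13.40 in IC50, against 13.28 and 13.03 in DMSO, gave no call. In the lists around the family, the calls of the averaged doses were FERMT1 (-1.42 ± 0.30) of 22 adaptors, DAB2, an endocytic adaptor of integrins (1.22 ± 0.25), of 17 regulators, none of 12 basement membrane partners, and CCN2 (-2.02 ± 0.30), TNC (-2.94 ± 0.70) and ICAM1 (1.11 ± 0.25) of 18 ligands.

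**Figure D3:**
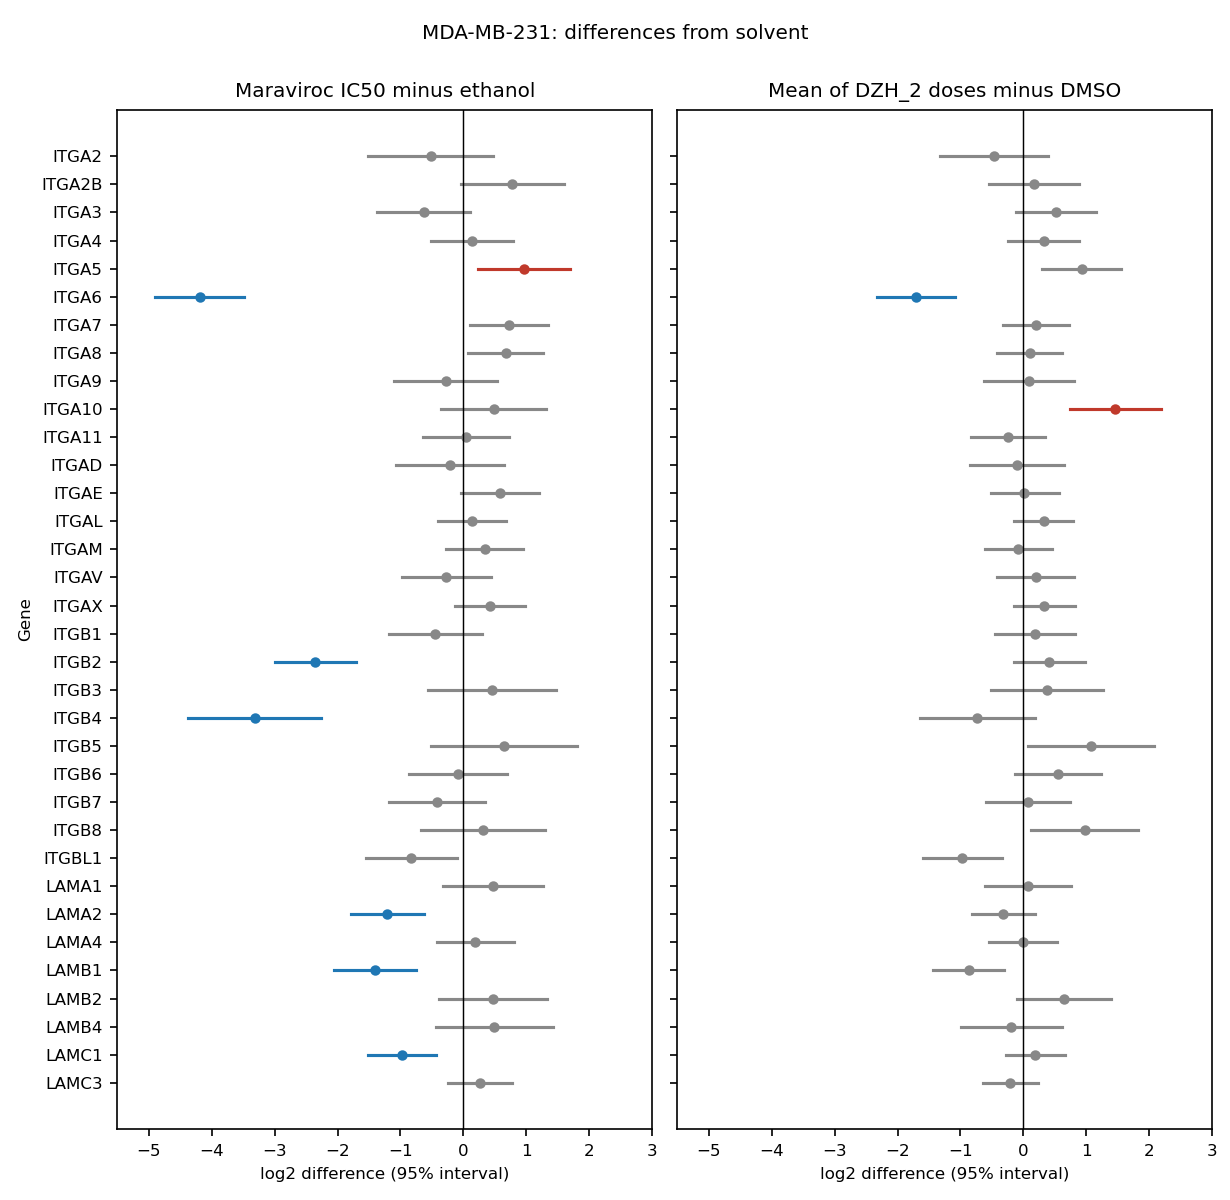
Log2 difference from solvent (horizontal axes, with the 95% interval of the limma fit) of the 34 genes (rows) for Maraviroc IC50 minus ethanol (left) and for the mean of both DZH_2 doses minus DMSO (right), in red where higher and in blue where lower past the threshold. ITGA6 lies at -4.20 on the left and at -1.71 on the right, and ITGB4 and ITGB2 are blue on the left only.

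DZH_2 and Maraviroc, the 1 pair of compounds, were set against each other at equal inhibition, each relative to its own solvent, as the effect of DZH_2 minus that of Maraviroc. At IC50 the log2 differences from solvent of ITGA6, ITGB2 and ITGB4 were higher for DZH_2 than for Maraviroc. Of these ITGA6 alone passed the test against solvent with DZH_2, and all 3 fell with Maraviroc. Of the 34 genes these 3 (8.82%) passed the test between compounds, where 6.17% of all genes did (4.02% higher and 2.15% lower). ITGA6 differed by 2.52 ± 0.47 (-1.68 with DZH_2 and -4.20 with Maraviroc, adjusted p = 0.0080 by limma). ITGB2 differed by 2.61 ± 0.42 (0.26 and -2.35, adjusted p = 0.0040). ITGB4 differed by 2.67 ± 0.69 (-0.65 and -3.31, adjusted p = 0.039). The ITGB4 call was lost without Maraviroc IC50 replicate 2, either DZH_2 IC50 array, either DMSO array or ethanol replicate 1 (adjusted p 0.067 to 0.15), and under quantile normalization (0.054). For ITGA5 the difference was 0.02, with a 95% interval of -1.0 to 1.04, so the fit leaves room for a difference of about 1 log2 unit either way.

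At IC20 none of the 34 genes passed, nor did any of the 17687 (2 and 1273 at an unadjusted p under 0.05). ITGA6 was lower with DZH_2 by -1.43 ± 0.47 (-1.74 with DZH_2 and -0.31 with Maraviroc, adjusted p = 0.52 by limma, 95% interval -2.44 to -0.41), the opposite sign to the difference at IC50. The solvents themselves gave no call: ethanol minus DMSO ran from -0.58 (ITGB4) to 1.03 (ITGB5) over the 34 genes, with 0 of them and 1352 of all genes at an unadjusted p under 0.05.

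The lines differed in which integrins and laminins they carried. Relative to MDA-MB-231, with treatment held equal over the 4 treatments both lines had, 14 of the 34 genes were higher in the arrays titled MCF10 and 6 were lower, 58.8% called, where 53.9% of all genes were (23.1% higher and 30.7% lower). Median centring gave 20 higher and 5 lower, with 7425 higher and 4199 lower over all genes. It put the median of all genes at 0.37, against 0.02 as deposited. Quantile normalization gave 15 and 3, with 4805 and 4160 over all genes, against 4094 and 5436 as deposited. The split is therefore stated relative to the deposited scaling. The summed log2 signal of 6 fibroblast markers was 48.5 to 54.9 in MCF10, against 30.2 to 34.4 in MDA-MB-231. That of 5 basal markers was 40.5 to 48.8, against 29.6 to 32.0, and that of 6 mesenchymal markers 66.7 to 69.8, against 58.0 to 64.4. Of the fibroblast markers DCN, FBLN1 and MMP2 had higher medians in MCF10 (9.96, 13.11 and 13.47, against 5.7, 5.04 and 5.07 over all MDA-MB-231 arrays). PDGFRB had a lower one (6.31, against 6.99), and PDGFRA and LUM were near background on every array. The mesenchymal markers disagreed in direction too. FN1, SNAI2 and SPARC had higher medians in MCF10 (FN1 17.53, against 9.26 over all MDA-MB-231 arrays). ZEB1, AKAP12 and VIM had lower ones (6.6, 6.01 and 15.2, against 11.62, 10.77 and 16.55). The part of these markers in the line differences was not tested. Of the 20 called genes 13 stood above background on at least 1 array of each line. Each MCF10 treatment had 1 array, so the test takes the spread between arrays and any difference of response between the lines as its error.

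The laminin receptor chains ITGB4 and ITGA6 differed in opposite directions. ITGB4 stood at 13.81 in DZH_2 IC20, 12.89 in DZH_2 IC50, 15.13 in DMSO and 15.45 in untreated MCF10, against a lowest of 9.27, a median of 10.05 and a highest of 11.61 over 7 MDA-MB-231 arrays, a difference of 3.94 ± 0.27. ITGA6 stood at 9.65, 7.96, 8.42 and 9.41 in the same MCF10 order, against 10.90, 11.55 and 13.03 (lowest, median and highest) in MDA-MB-231, a difference of -3.17 ± 0.37. Neither gene overlapped between the lines. ITGB1, the shared beta chain, was lower in MCF10 (13.23 to 14.89, against 15.05 to 15.63 in MDA-MB-231, -1.38 ± 0.26), and ITGA3 was 1.10 ± 0.22 higher with overlapping arrays.

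The collagen receptor chains also parted. ITGA2 was 5.47 to 6.37 in MCF10, above background on 2 of 4 arrays, against 10.70 to 11.87 in MDA-MB-231 (-5.30 ± 0.29), whereas ITGA10 was 9.23 to 10.61 in MCF10, against 6.41 to 8.26 (2.71 ± 0.32). ITGA5 was 14.30 to 15.20 in MCF10, against 10.80 to 12.17 (3.42 ± 0.28), beside its ligand FN1 at 7.97 ± 0.36 higher. ITGB8, which with ITGAV binds latent TGF-beta, was 9.36 to 10.46 in MCF10 and near background on all 7 MDA-MB-231 arrays, at least 13.6-fold higher in MCF10. ITGB5 was higher by 1.5 ± 0.25. ITGAV, the alpha chain that pairs with ITGB8 and ITGB5, was lower by 0.82 ± 0.24 with overlapping arrays (8.46 to 9.82, against 9.44 to 10.19). The ITGAV call was lost without the MCF10 DZH_2 IC20 array or the MCF10 DMSO array, and at -0.46 and -0.08 it did not pass under median centring or quantile normalization. ITGB2, at -0.89 ± 0.22, missed the threshold under quantile normalization (-0.17) and over untreated and DMSO arrays alone.

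Of the laminins, LAMB1 was 10.01 to 11.04 in MCF10, against 6.08 to 7.33 in MDA-MB-231, a difference of 3.57 ± 0.20. LAMB2, the other widespread beta chain, was 9.70 to 10.17 in MCF10, against 10.32 to 11.26, a difference of -0.99 ± 0.18 that did not pass under quantile normalization (-0.32). LAMA1 was 8.40, 8.83 and 8.45 in DZH_2 IC20, DZH_2 IC50 and DMSO MCF10 cells and 5.64 in untreated MCF10 cells, against 4.37 to 5.79 in MDA-MB-231. It was thus high on 3 MCF10 arrays and near background on the untreated one, and it is at least 3.53-fold higher in MCF10 by the mean of the 4, and it missed the threshold over untreated and DMSO arrays alone (1.67, adjusted p = 0.057 by limma). LAMA4 (7.73 to 8.03 in MCF10, against 7.60 to 8.09) and LAMC1 (12.92 to 13.10, against 13.03 to 13.47) did not pass. ITGA2B was 1.28 higher in MCF10, a call lost over untreated and DMSO arrays alone (adjusted p = 0.062 by limma). The remaining calls, ITGA7, ITGA8, ITGAD, ITGB6 and LAMB4, were higher in MCF10 and near background on all 7 MDA-MB-231 arrays, and ITGAD and ITGB6 on the MCF10 arrays too. LAMB4 was at least 1.57-fold higher in MCF10, and no fold is given for the other 4. Calls of ITGA7, ITGAD and LAMB4 were each lost without the DMSO array of MCF10 (adjusted p 0.10, 0.25 and 0.081) or without the untreated array of either line. Those of LAMB4 were also lost without the MCF10 DZH_2 IC20 array (0.19) or DMSO replicate 1, and ITGAD without several others (0.052 to 0.089) and under quantile normalization. All adjusted p values of called genes in the line comparison lay between 7.0e-08 and 0.047 by limma.

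Of 22 adaptors and kinases 9 were higher and 9 lower in MCF10 (81.8% called, where 53.9% of all genes were), with PTK2B, a kinase related to FAK, near background in MDA-MB-231 and at a mean of 11.12 in MCF10, and FERMT1 at -3.30 ± 0.23. Of 17 regulators 5 were higher and 9 lower (82.4%), with the tetraspanin CD151, a partner of laminin-binding integrins, at 2.22 ± 0.22 and APBB1IP, an adaptor of talin, at a mean of 10.82 in MDA-MB-231 and near background in MCF10. Of 12 basement membrane partners 5 were higher and 3 lower (66.7%), with SDC4 at 2.74 ± 0.17, HSPG2 (perlecan) at 2.47 ± 0.31 and DST, which links ITGB4 to keratin, at -2.90 ± 0.33. Of 18 other ligands 6 were higher and 5 lower (61.1%). These lists were chosen with earlier results of these data known, so their called shares are no independent support.

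**Figure D4:**
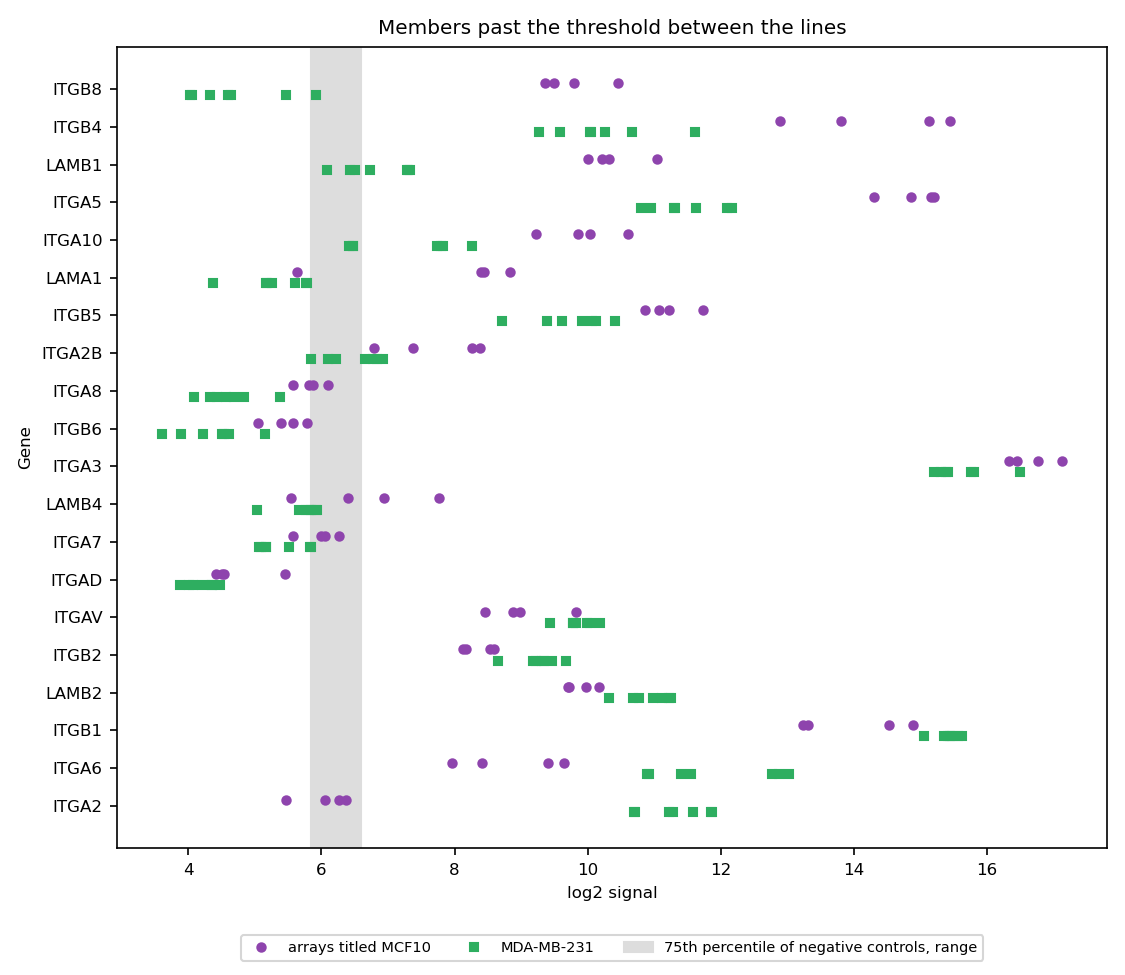
Log2 signal (horizontal axis) of the 20 genes called between the lines (rows), with circles for the 4 arrays titled MCF10 above squares for the 7 MDA-MB-231 arrays of the same treatments, and a grey band over the range of the background level of these arrays. ITGB8 and ITGA2 lie in the band or below it in 1 line and far above it in the other, and 4 genes (ITGA7, ITGA8, ITGAD and ITGB6) lie in or below it in both.

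In the cells titled MCF10, DZH_2 was described by values, since each group had 1 array and no test was possible. Of the 34 genes 2 were higher and 2 lower than in DMSO by at least 1 log2 unit at both doses, where 9.41% of all genes were (4.52% higher and 4.88% lower). ITGB1 stood at 14.89 in DZH_2 IC20 and 14.53 in DZH_2 IC50, against 13.23 in DMSO and 13.31 in untreated cells. ITGB4 stood at 13.81 and 12.89, against 15.13 in DMSO and 15.45 in untreated cells. These chains were past 1 log2 unit from either control, ITGB1 upward and ITGB4 downward. ITGA2B, the platelet alpha chain, stood at 8.26 and 8.38, against 6.79 in DMSO and 7.37 in untreated cells. ITGAE, known for binding E-cadherin, stood at 8.13 and 8.43, against 9.90 in DMSO and 8.94 in untreated cells. Their size against the untreated array was smaller, so they depend on the DMSO array. ITGA6, which fell with DZH_2 in MDA-MB-231, was 1.22 higher than in DMSO at IC20 and -0.47 at IC50 in MCF10, and 0.24 and -1.45 relative to untreated cells. ITGA10 was 0.57 and -0.81 relative to DMSO, and 0.76 and -0.62 relative to untreated cells.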

How the data were processed

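RNA was measured on 17 arrays. The values the authors deposited are log2 signals, 1 per probe set and array; how they were summarised, background-corrected and normalized is not stated by the labels, and the array carries no counting depth, so the number of arrays limits the precision. The values were used as deposited. Genes were named by the platform annotation (17709 probe sets with 1 symbol each, 2903 controls, 3739 unlisted). For 20 genes with several probe sets the highest mean was used, which left 17687 genes.

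Groups came from the sample titles. A single model (limma 3.58.1 in R 4.3.3, tables read with data.table in version 1.17.8) covered the 12 MDA-MB-231 arrays whose group had a replicate, leaving 6 degrees of freedom for error. The lines were compared over 11 arrays with treatment as a term. All p-values are 2-sided and adjusted across the 17687 genes by the Benjamini-Hochberg method, with 0.05 as threshold; ± is the standard error of the fit, and intervals are 95%. The fits were also run on simulated data with independent noise of the same spread in every group. Such data do not hold the larger spread of Maraviroc IC50, and no result here rests on them. Same-numbered replicates deviated together at -0.149 to 0.301 over 15 pairs of groups. The 3 over 0.1 were the DZH_2 doses with each other (0.301) and ethanol with Maraviroc IC20 (0.251) and IC50 (0.122). Each of these joins groups that were averaged or compared. Numbers were not taken as pairs, and the DZH_2 arrays of the averaged doses were treated as independent. A single replicate block over all groups does not model a pairing within a compound.

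The genes and lists were chosen with earlier results of these data known. Every gene of the family was accounted for. Full statistics went to genes past the threshold, at most 8 each way for Maraviroc IC50 and for the lines and 6 in other comparisons, and up to 4 genes with the smallest p were named per other list. Alternatives were median centring, quantile normalization, a filter on low values, array weights, other choices of controls and arrays, and leaving out each array.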

Additional observations from a re-analysis of the deposited data

Results flagged for a closer look

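The differences from solvent of ITGA6, ITGB2 and ITGB4 differed between the compounds at IC50, by 2.52, 2.61 and 2.67 on the log2 scale (DZH_2 minus Maraviroc), with adjusted p values of 0.0080, 0.0040 and 0.039 by limma. The ITGB4 call was lost in 7 of 14 alternatives. ITGBL1 differed from DMSO in opposite directions with DZH_2 in the lines, passing no test: both MCF10 arrays were above the MCF10 DMSO array, by a mean of 0.56, and the 4 MDA-MB-231 arrays were below both DMSO arrays, by a mean of -0.97 (adjusted p = 0.10 by limma). In MCF10 the IC20 and DMSO values, 6.32 and 5.94, were near background. In MDA-MB-231 ITGBL1 stood above background on 1 of the 4 DZH_2 arrays and on both DMSO arrays. That difference between the lines was not tested, and relative to the untreated MCF10 array ITGBL1 was -0.38 at IC20 and -0.02 at IC50.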

How the results depend on the processing

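Of the 40 calls of single genes 22 held under all alternatives run on them and none changed direction. In Maraviroc IC50 against ethanol 7 genes were called, 12 against all 5 control arrays and 4 with the 4 arrays compared alone (chosen after seeing the data), where ITGA5, LAMB1 and LAMC1 did not pass; array weights lost ITGA5 and LAMC1. In DZH_2 IC20 against DMSO the count was 1, with 2 in a fit without the Maraviroc IC50 arrays, 3 against all 5 control arrays and 2 with the 4 arrays alone, and 0 without any 1 array. In DZH_2 IC50 it was 1, with 3 under array weights, 3 without the Maraviroc IC50 arrays, 2 against all 5 control arrays and 3 with the 4 arrays alone, and 0 without any 1 array. For the mean of the doses it was 2, with 5 under array weights and 4 with the DMSO and untreated arrays as control (chosen after seeing the data), and 0 to 1 without 1 array. ITGA6 was among the genes called in each of these larger counts. The cause of these shifts was not tested, and some of these fits held fewer arrays. With the replicate number as a block the counts were 7, 1, 1 and 2, as without it. With that block 0 genes were called for Maraviroc IC20, for ethanol against DMSO and between the compounds at IC20, 6 between the Maraviroc doses (ITGBL1 in place of LAMC1) and 3 between the compounds at IC50. No such block could be fitted between the lines, since each MCF10 treatment had 1 array.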
